A study of Mus musculus with 139 samples.

Results

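A set of 10 genes of the NRF2 and oxidative stress response were followed in mouse lung: Slc7a11, Gclc, Gclm, Gsr, Txnrd1, Srxn1, Nqo1, Hmox1, Mt1 and Mt2. They are 10 of the 22180 genes that the arrays paired with 1 symbol, each read from the array feature with the highest mean, and they were chosen as known genes of this response when earlier results of these data were known. Male mice of the strain written C57BL/J6, obtained at an age of 7 weeks, had inhaled a single droplet from the back of the mouth (pharyngeal aspiration). It held dispersion medium alone (DM, a buffered saline with glucose, mouse serum albumin and a phospholipid), multi-walled carbon nanotubes (MWCNT) in DM at 1, 10, 40 or 80 µg, or crocidolite asbestos in DM at 120 µg. Whole lung was profiled 1, 6 or 12 months later on Affymetrix arrays, which gave 18 groups. Each held 8 mice but for 3 smaller ones: the 1 µg group at 12 months with 6, and the crocidolite groups at 1 and 12 months with 5 and 7. DM lungs of each time are the only controls, and no unexposed or knockout lungs enter, so the levels show how the genes stood in lungs and not what NRF2 did in them. The study asked how lung responses and expression changed with MWCNT dose up to 12 months after exposure.

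NRF2, encoded by Nfe2l2, is a transcription factor that KEAP1 and the CUL3 ubiquitin ligase keep low by degradation. When electrophiles or oxidants modify cysteines of KEAP1, NRF2 accumulates, pairs with small MAF proteins and binds antioxidant response elements near genes for glutathione synthesis, thiol reduction, quinone reduction and haem breakdown, some of which BACH1 represses. Metallothioneins are small cysteine-rich proteins that bind zinc and copper. They are induced mainly through the zinc sensor MTF1 at metal response elements, and also by glucocorticoids, cytokines and oxidants. Mineral fibres and nanotubes that lung macrophages cannot clear are a known source of oxidants.

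Promoter sequence is shown for Slc7a11, Txnrd1 and Mt2, which were all higher at 1 month, for the letters to which NRF2 and MTF1 are known to bind. RefSeq promoter windows of build GRCm38.p6, from 250 bases before to 50 after a start, were at hand for 7 of the 10 genes (Gclm, Mt1, Mt2, Nqo1, Slc7a11, Srxn1 and Txnrd1), in 9 windows. Printed are the 250 bases before the start, with matches in capitals, of Slc7a11 (chr3:50443614-50443863, minus strand), of Txnrd1 at the middle of its 3 starts (chr10:82858956-82859205, plus strand) and of Mt2 (chr8:94172368-94172617, plus strand). The Slc7a11 and Txnrd1 windows lie inside longer RefSeq gene records, so each marks one of several starts.
Slc7a11: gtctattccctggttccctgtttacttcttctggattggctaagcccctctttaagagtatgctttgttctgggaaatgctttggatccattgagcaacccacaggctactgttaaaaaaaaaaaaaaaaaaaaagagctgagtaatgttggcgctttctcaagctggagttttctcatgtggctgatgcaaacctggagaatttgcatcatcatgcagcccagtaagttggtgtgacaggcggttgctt
Txnrd1: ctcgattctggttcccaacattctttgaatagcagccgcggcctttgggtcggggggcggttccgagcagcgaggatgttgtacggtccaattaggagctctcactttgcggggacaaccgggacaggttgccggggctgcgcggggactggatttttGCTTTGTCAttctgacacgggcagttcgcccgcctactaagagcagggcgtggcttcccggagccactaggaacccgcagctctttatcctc
Mt2: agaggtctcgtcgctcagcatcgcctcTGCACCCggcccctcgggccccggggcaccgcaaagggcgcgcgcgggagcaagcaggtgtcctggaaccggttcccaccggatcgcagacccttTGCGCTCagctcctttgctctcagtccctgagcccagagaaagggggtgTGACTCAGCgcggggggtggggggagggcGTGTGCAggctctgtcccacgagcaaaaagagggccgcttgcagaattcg

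The antioxidant response element was searched as TGACNNNGC and the metal response element as TGCACNC or TGCGCNC, on both strands. In the Mt2 window an antioxidant response element ran from -79 to -71, among metal response elements from -223, -128 and -50, and a further one began at 5 after the start. Txnrd1 had 1 antioxidant response element, on the minus strand from -92 to -84, and its other 2 windows held neither motif. The Slc7a11 window, of the gene with the largest differences below, held neither, as did the Nqo1 window. Mt1, the neighbour of Mt2 on chromosome 8, had 3 metal response elements, beginning at -23, 3 and 21, and no antioxidant response element. The starts used for Mt1 and Gclm also lie inside longer RefSeq gene records. Their windows thus reach less far before the record than that of Mt2. Gclm had an antioxidant response element from -134 that overlapped a metal response element from -138, with 2 further metal response elements. Srxn1 had 1 of each, the antioxidant response element after its start. Over all 32851 windows 12.4% held the antioxidant response element and 25.7% the metal response element, and 0.517% held 4 or more metal response elements as Mt2 did. Such matches describe the letters only, and a window without one says nothing of the factor.

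The labelled tissue was borne out by its markers: the mean log2 level of 8 type 2 alveolar markers such as Sftpc lay between 10.48 and 10.94 in the 18 groups, and that of 8 club cell markers between 9.99 and 10.68. Several arrays stood apart. On 16 of 139 arrays the muscle gene Acta1 was over 3 log2 units above its median, and on 9 of these Krt4, a keratin of squamous epithelium, was too. The 10 arrays that correlated least with the others (0.955 to 0.969, against up to 0.986) included 2 of the 5 crocidolite mice at 1 month, replicates 4 and 5. The word replacement, unexplained in the labels, stands in the titles of 38 arrays. Results of the 10 genes that rest on these arrays are given with and without them. Calls of all other genes and of the marker lists are given with all arrays only, and were not checked without these. Arrays give no count of molecules, so the number of mice limits the precision, and levels of different genes are not compared with each other.

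Slc7a11, Gclc, Hmox1 and Mt2 were the members that rose most often, while Nqo1, Gclm, Gsr and Srxn1 mostly did not. At 1 month after 80 µg MWCNT, 6 of 10 members were higher than in DM lungs (Slc7a11, Mt2, Hmox1, Mt1, Gclc and Txnrd1) and 0 lower, beside 1.69% of all genes higher and 1.79% called in either direction. After crocidolite the same 6 were higher at 1 month and Nqo1 was lower, beside 2.93% of all genes higher, 2.83% lower and 5.76% either. "Higher" and "lower" are differences of log2 levels with an adjusted p under 0.05 in limma over all 22180 genes. At 6 months the counts were 2 with 80 µg (Slc7a11 and Gclc, beside 0.803% of genes higher and 0.933% either) and 4 with crocidolite (these and Hmox1 and Mt2, beside 1.45% and 3.68%). At 12 months they were 0 with 80 µg, beside 0.176% of genes called, and 7 with crocidolite, beside 4.31% higher and 6.47% either. The 7 were the 6 of the first month and Gclm.

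**Figure D1:**
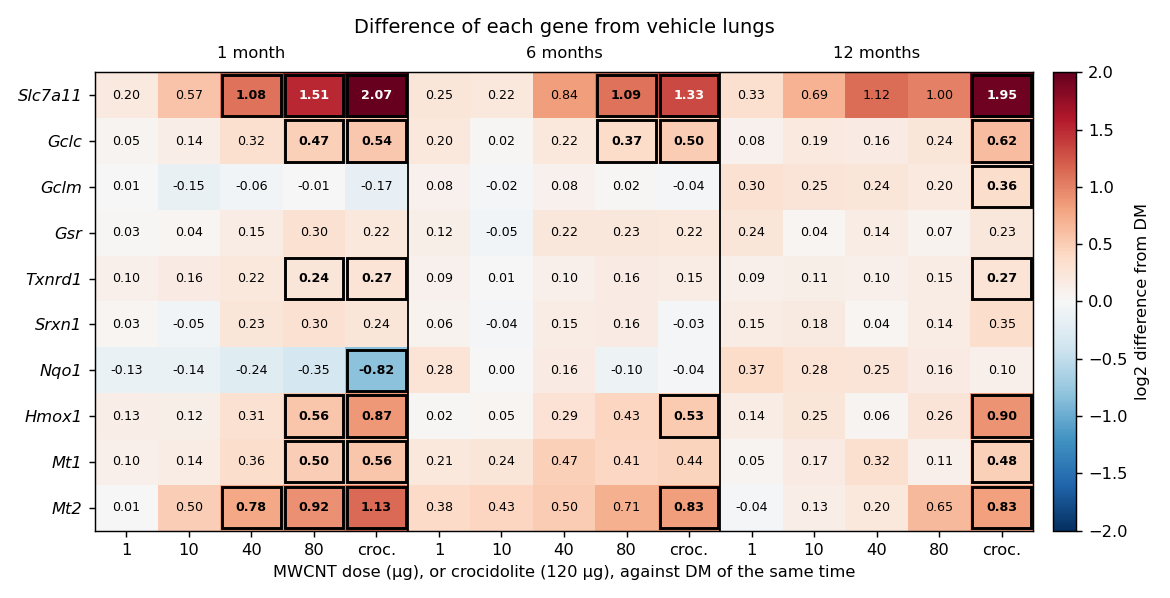
Log2 difference of each member (rows) from DM lungs of the same time, for 4 MWCNT doses and crocidolite (columns) at 1, 6 and 12 months. Framed bold values had an adjusted p under 0.05 in limma: they lie at 40 and 80 µg and with crocidolite, and the single framed negative value is Nqo1 with crocidolite at 1 month (-0.82).

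With 40 µg, Slc7a11 and Mt2 were higher at 1 month, beside 0.555% of genes higher and 0.573% either, and 0 members passed at 6 and 12 months, beside 0.212% and 0.0361% of genes called. At those times 6 and 3 members had an unadjusted p under 0.05 in limma. With 10 µg 0 members passed at 1, 6 and 12 months, beside 0.0225%, 0.00451% and 0% of genes, and 3, 1 and 3 members had an unadjusted p under 0.05. With 1 µg no gene of the array passed at any time, so 0 members and 0% of genes were called, with 0, 1 and 2 members under an unadjusted 0.05. With 80 µg at 12 months 4 members were under that value. The median difference over the 10 members was 0.39, 0.30 and 0.18 for 80 µg at 1, 6 and 12 months and 0.41, 0.33 and 0.42 for crocidolite. Over all genes these medians lay between -0.03 and 0.01. All exposed groups of a time share the same DM mice, so their differences are not independent of each other.

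The counts depended on which arrays entered and on the scaling. Shares of all genes called in these other fits are not given here, so a lower count is not shown to be particular to the 10 genes. Without the 10 arrays of low correlation the counts called with crocidolite were 2 at 1 month, 5 at 6 months and 5 at 12 months, and without the 16 arrays high in Acta1 or Krt4 they were 6, 3 and 5. For 80 µg they were 4, 2 and 0 without the low-correlation arrays and 6, 0 and 0 without the Acta1 or Krt4 arrays. Among arrays with no replacement in the title, 1, 0 and 0 members passed for 80 µg and 2, 5 and 1 for crocidolite, with fewer mice in most groups. The 2 left with crocidolite at 1 month without the low-correlation arrays were Slc7a11 and Gclc, and what each other member lost stands beside its results. Without the replacement arrays the calls lost with crocidolite were Nqo1, Gclc, Txnrd1, Mt1 and Mt2 at 1 month (adjusted p = 0.106 to 0.775) and Hmox1, Gclm, Gclc, Txnrd1, Mt1 and Mt2 at 12 months (adjusted p = 0.069 to 0.621). With 80 µg they were Hmox1, Txnrd1, Slc7a11, Mt1 and Mt2 at 1 month (adjusted p = 0.0609 to 0.964) and Gclc and Slc7a11 at 6 months (adjusted p = 0.0886 to 0.347), and with 40 µg Slc7a11 and Mt2 at 1 month (adjusted p = 0.246 to 0.471). Quantile normalization lost Mt2 with 40 µg at 1 month (adjusted p = 0.0532) and Txnrd1 and Mt1 with 80 µg at 1 month (adjusted p = 0.0519 to 0.144), and median centring lost Mt2 with 40 µg at 1 month (adjusted p = 0.0506), Txnrd1 and Mt1 with 80 µg at 1 month (adjusted p = 0.0688 to 0.174) and Gclc in 80 µg minus crocidolite at 12 months (adjusted p = 0.0524). No called member changed sign under the 13 alternatives tried or with a mouse left out.

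Slc7a11 encodes the light chain of the cystine and glutamate exchanger, which brings in cystine for glutathione synthesis, and it had the largest differences of the 10 genes. In DM lungs at 1 month its log2 level ran from 2.58 to 3.80 (median 3.24), and with 80 µg from 4.22 to 5.19 (median 4.81). The 5 crocidolite mice at 1 month stood at 5.84, 4.14, 4.36, 5.99 and 6.14. Every mouse given 80 µg or crocidolite was above every DM mouse, and the crocidolite mice fell into 3 high and 2 lower values. Of the high ones, mice 4 and 5, at 5.99 and 6.14, had arrays among those of low correlation. The mean levels at 1 month, here and below with ± SD over the mice of a group, were 3.22 ± 0.45 in DM lungs, 3.42 ± 0.29 at 1 µg, 3.79 ± 0.46 at 10 µg, 4.30 ± 0.40 at 40 µg, 4.73 ± 0.32 at 80 µg and 5.29 ± 0.96 with crocidolite. The differences from DM were 1.08 (SE 0.27, adjusted p = 0.0232) at 40 µg, 1.51 (SE 0.27, adjusted p = 3.99e-05) at 80 µg and 2.07 (SE 0.31, adjusted p = 1.63e-07) with crocidolite. At 6 months the levels were 3.23 ± 0.43 in DM lungs, 3.48 ± 0.69 at 1 µg, 3.45 ± 0.45 at 10 µg, 4.08 ± 0.50 at 40 µg, 4.33 ± 0.84 at 80 µg and 4.56 ± 0.70 with crocidolite. There the mice overlapped with DM: 6 of 8 at 80 µg and 6 of 8 with crocidolite were above all DM mice, with differences of 1.09 (adjusted p = 0.0159) and 1.33 (adjusted p = 0.000644). At 12 months they were 3.18 ± 0.42 in DM lungs, 3.51 ± 0.75 at 1 µg, 3.87 ± 0.29 at 10 µg, 4.30 ± 0.72 at 40 µg, 4.19 ± 0.53 at 80 µg and 5.13 ± 0.38 with crocidolite. All 7 crocidolite mice (4.70 to 5.64) were above all DM mice (2.65 to 3.82), with a difference of 1.95 (SE 0.28, adjusted p = 5.37e-08). The 40 and 80 µg differences of 1.12 and 1.00 did not pass (adjusted p = 0.0572 and 0.0875). The 80 µg call at 6 months was lost without 80 µg mice 2, 3 or 6 or DM mouse 5 (adjusted p = 0.0596 to 0.173). The 40 µg call at 1 month was lost without 40 µg mice 5 or 7 or DM mice 5 or 6 (adjusted p = 0.0668 to 0.0888). The 40 µg difference at 1 month was 1.16 (adjusted p = 0.0611) and the 80 µg difference at 6 months was 1.01 (adjusted p = 0.0762), not past the test, without the 16 arrays high in Acta1 or Krt4.

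Slc7a11 is a dim signal on these arrays: array medians lay between 4.01 and 4.34, and its DM levels of 3.18 to 3.23 were below them. The files give no detection call or background level, so it is not known whether the DM level is above background, and no fold is given for Slc7a11, whose differences may understate the change in RNA. It also has 2 features. The second stayed between 1.40 and 1.92 in all 18 groups, and with the mean of both features the 80 µg differences were 0.72 at 1 month (adjusted p = 0.00757) and 0.49 at 6 months (adjusted p = 0.238). The 40 µg difference at 1 month was then 0.65 (adjusted p = 0.0508). Ordered by mean, the 18 groups ran from 3.18 ± 0.42 in DM lungs at 12 months to 5.29 ± 0.96 with crocidolite at 1 month. Of 17 neighbouring pairs in that order 1 was separated by more than its pooled SD, crocidolite at 12 months from 80 µg at 1 month. The order was made from the means themselves, so gaps between neighbours are small. Here and below such gaps say nothing of groups farther apart.

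**Figure D2:**
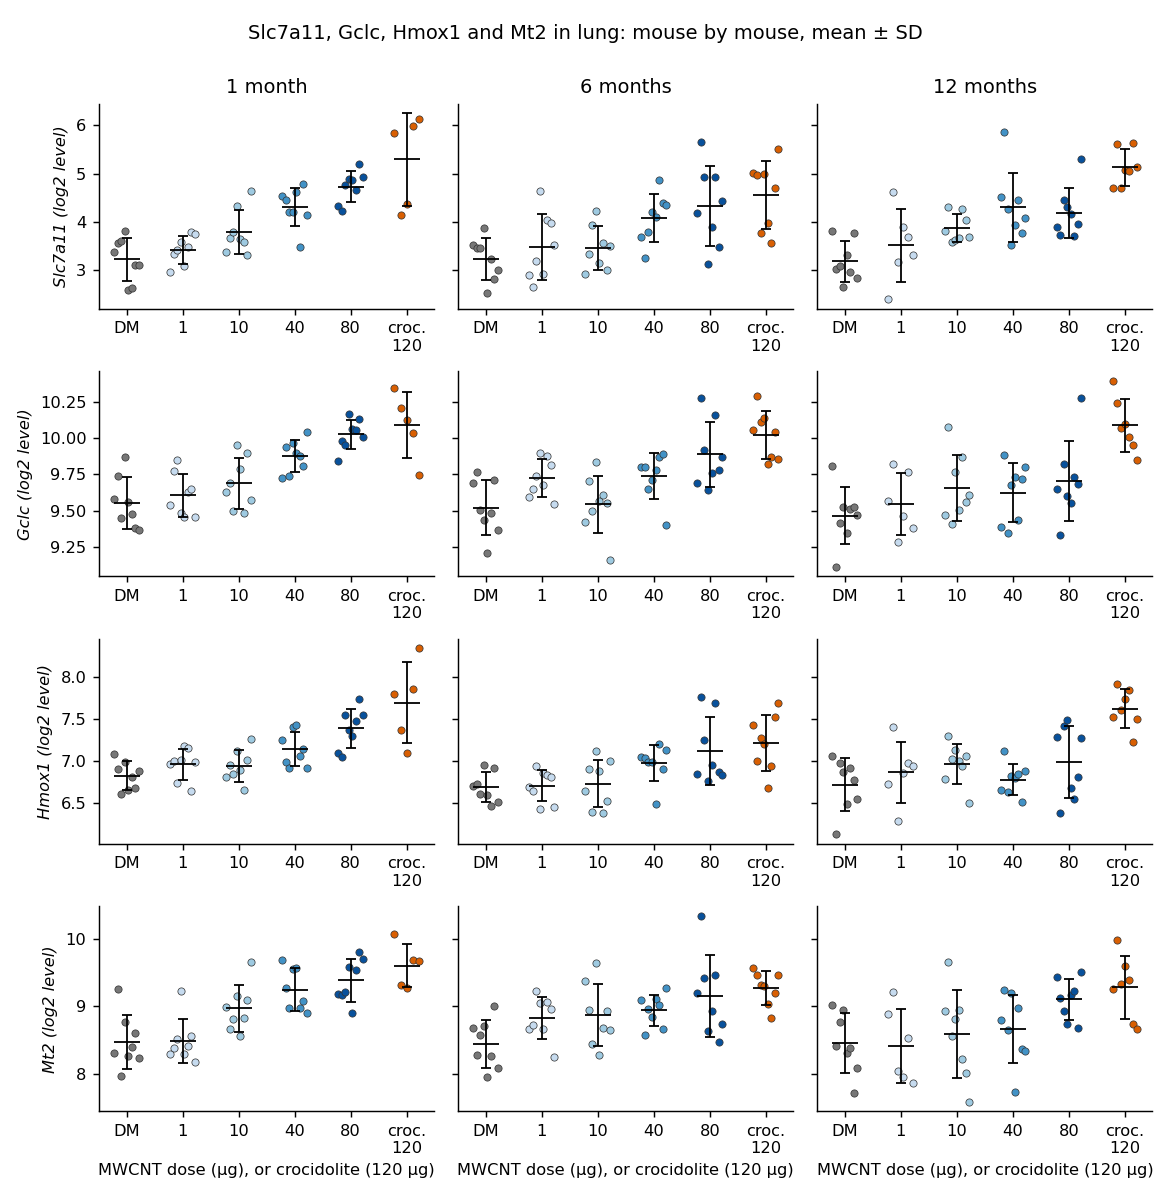
Log2 level of Slc7a11, Gclc, Hmox1 and Mt2 (rows) in each mouse at 1, 6 and 12 months (columns of panels), by treatment on the horizontal axis: DM in grey, MWCNT doses in blue and crocidolite in orange. Points are mice and bars the mean ± SD. At 12 months the crocidolite mice stand above all DM mice for Slc7a11, Gclc and Hmox1, while 80 µg mice overlap with DM.

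Gclc, the catalytic subunit of glutamate-cysteine ligase and the rate-limiting enzyme of glutathione synthesis, rose by less but with little spread. At 1 month the levels were 9.55 ± 0.18 in DM lungs, 9.60 ± 0.15 at 1 µg, 9.69 ± 0.18 at 10 µg, 9.87 ± 0.11 at 40 µg, 10.03 ± 0.10 at 80 µg and 10.09 ± 0.23 with crocidolite. DM mice ran from 9.36 to 9.87 (median 9.51) and 80 µg mice from 9.84 to 10.16 (median 10.03), so 7 of 8 exposed mice were above all DM mice. The differences were 0.47 (SE 0.10, 1.39-fold, adjusted p = 0.000433) with 80 µg and 0.54 (SE 0.11, 1.45-fold, adjusted p = 0.000187) with crocidolite, whose 5 mice stood at 10.35, 10.21, 10.12, 10.04 and 9.74. At 6 months all 8 crocidolite mice (9.82 to 10.29) were above the 8 DM mice (9.21 to 9.76), with a difference of 0.50 (adjusted p = 0.000196), and 5 of 8 were so with 80 µg, with 0.37 (adjusted p = 0.0266). At 12 months the crocidolite difference was 0.62 (SE 0.10, 1.54-fold, adjusted p = 1.01e-06) with all 7 mice above DM, and the 80 µg difference was 0.24 (adjusted p = 0.327) with 2 of 8. The remaining levels at 6 months were 9.72 ± 0.13 at 1 µg, 9.54 ± 0.20 at 10 µg and 9.74 ± 0.16 at 40 µg, and at 12 months 9.55 ± 0.21, 9.66 ± 0.23 and 9.62 ± 0.20. The 80 µg call at 6 months was lost without 80 µg mice 2, 3 or 6 or DM mice 4, 5, 6 or 8 (adjusted p = 0.0515 to 0.205). Of 17 neighbouring pairs among the ordered groups 1 differed by more than its pooled SD, 40 µg at 1 month from 40 µg at 6 months. The 80 µg difference at 6 months was 0.36 (adjusted p = 0.063), not past the test, without the 16 arrays high in Acta1 or Krt4.

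Gclm, the modifier subunit that makes the same ligase more efficient, did not follow Gclc at the earlier times. At 1 month its levels were 7.54 ± 0.15 in DM lungs, 7.54 ± 0.12 at 1 µg, 7.38 ± 0.25 at 10 µg, 7.48 ± 0.26 at 40 µg, 7.52 ± 0.14 at 80 µg and 7.36 ± 0.30 with crocidolite, and at 6 months 7.55 ± 0.11 in DM lungs, 7.63 ± 0.22 at 1 µg, 7.53 ± 0.13 at 10 µg, 7.63 ± 0.31 at 40 µg, 7.57 ± 0.15 at 80 µg and 7.50 ± 0.24 with crocidolite. These groups overlapped throughout. Its differences from DM at 1 month were -0.01 with 80 µg and -0.17 with crocidolite (adjusted p = 0.993 and 0.521), and at 6 months 0.02 and -0.04 (adjusted p = 0.991 and 0.898). It passed only with crocidolite at 12 months, at 0.36 (SE 0.11, 1.28-fold, adjusted p = 0.0268). The 7 crocidolite mice ran from 7.70 to 8.04 (median 7.83) and the 8 DM mice from 7.01 to 7.90 (median 7.57), so 2 of 7 were above all DM mice and the groups overlapped. All 4 MWCNT doses at 12 months had means above DM (7.50 ± 0.29): 7.80 ± 0.18 at 1 µg, 7.75 ± 0.21 at 10 µg, 7.73 ± 0.22 at 40 µg and 7.69 ± 0.18 at 80 µg. The mean was highest at the lowest dose, and none passed the test. The crocidolite call was lost without crocidolite mice 1 or 6 or DM mice 2, 3 or 5 (adjusted p = 0.0542 to 0.108). DM mouse 2 had the lowest value, and without it the difference was 0.29. The 18 group means spanned 7.36 ± 0.30 to 7.85 ± 0.14, both with crocidolite, and no neighbouring pair differed by more than its pooled SD. Without the 10 low-correlation arrays the crocidolite difference at 12 months was 0.29 (adjusted p = 0.0672), not past the test. Without the 16 arrays high in Acta1 or Krt4 it was 0.29 (adjusted p = 0.111), not past the test.

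Txnrd1, cytosolic thioredoxin reductase, which keeps thioredoxin reduced with NADPH, rose by small amounts. DM mice at 1 month ran from 7.85 to 8.24 (median 8.01) and 80 µg mice from 8.17 to 8.43 (median 8.29), with 7 of 8 above all DM mice. The differences were 0.24 (SE 0.07, 1.18-fold, adjusted p = 0.0394) with 80 µg and 0.27 (SE 0.08, 1.21-fold, adjusted p = 0.0181) with crocidolite. At 12 months all 7 crocidolite mice (8.44 to 8.54) were above all DM mice (7.98 to 8.37), with 0.27 (SE 0.07, 1.2-fold, adjusted p = 0.00794). At 6 months neither passed, with 0.16 (adjusted p = 0.395) for 80 µg and 0.15 (adjusted p = 0.283) for crocidolite. The Txnrd1 means at 1 month were 8.06 ± 0.15 in DM lungs, 8.15 ± 0.08 at 1 µg, 8.22 ± 0.14 at 10 µg, 8.27 ± 0.09 at 40 µg, 8.30 ± 0.08 at 80 µg and 8.33 ± 0.15 with crocidolite, lowest in DM lungs. At 6 months they were 8.17 ± 0.09 in DM lungs, 8.26 ± 0.13 at 1 µg, 8.18 ± 0.10 at 10 µg, 8.28 ± 0.13 at 40 µg, 8.34 ± 0.07 at 80 µg and 8.32 ± 0.19 with crocidolite. At 12 months they were 8.22 ± 0.13 in DM lungs, 8.31 ± 0.23 at 1 µg, 8.33 ± 0.16 at 10 µg, 8.32 ± 0.10 at 40 µg, 8.37 ± 0.15 at 80 µg and 8.49 ± 0.03 with crocidolite, with the smallest SD in the crocidolite mice. Of 17 neighbouring pairs among the ordered groups 1 was separated by more than its pooled SD, crocidolite from 80 µg at 12 months. The 80 µg call was lost without 80 µg mice 2, 3, 5, 6, 7 or 8 or DM mice 3, 5, 6, 7 or 8 (adjusted p = 0.0503 to 0.124). The crocidolite call at 1 month was lost without crocidolite mice 1 or 4 or DM mouse 8 (adjusted p = 0.0532 to 0.106). Among arrays with no replacement in the title the crocidolite difference at 1 month was 0.13 (adjusted p = 0.775), and among those with it 0.37 (adjusted p = 0.126). Without the 10 low-correlation arrays the 80 µg difference at 1 month was 0.23 (adjusted p = 0.0502) and the crocidolite difference was 0.28 (adjusted p = 0.133), not past the test. Under quantile normalization the 80 µg difference at 1 month was 0.20 (adjusted p = 0.144), not past the test. Under median centring it was 0.20 (adjusted p = 0.174), not past the test.

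Srxn1, sulfiredoxin, which restores over-oxidised peroxiredoxins, and Gsr, glutathione reductase, passed in none of the comparisons with DM. Srxn1 levels at 1 month were 5.46 ± 0.23 in DM lungs, 5.49 ± 0.30 at 1 µg, 5.41 ± 0.32 at 10 µg, 5.69 ± 0.15 at 40 µg, 5.76 ± 0.19 at 80 µg and 5.70 ± 0.15 with crocidolite, and 5 of 8 mice at 80 µg were above all DM mice. Its largest difference was 0.35 (SE 0.13, 1.28-fold, adjusted p = 0.102) with crocidolite at 12 months, where 3 of 7 mice were above all DM mice. Its levels at 6 months were 5.54 ± 0.31 in DM lungs, 5.60 ± 0.25 at 1 µg, 5.50 ± 0.25 at 10 µg, 5.69 ± 0.16 at 40 µg, 5.70 ± 0.20 at 80 µg and 5.51 ± 0.32 with crocidolite, and at 12 months 5.56 ± 0.36 in DM lungs, 5.71 ± 0.32 at 1 µg, 5.74 ± 0.23 at 10 µg, 5.60 ± 0.30 at 40 µg, 5.70 ± 0.24 at 80 µg and 5.91 ± 0.21 with crocidolite. Gsr, which returns oxidised glutathione to its reduced form, was at 1 month 7.99 ± 0.16 in DM lungs, 8.02 ± 0.12 at 1 µg, 8.03 ± 0.18 at 10 µg, 8.14 ± 0.14 at 40 µg, 8.29 ± 0.14 at 80 µg and 8.21 ± 0.16 with crocidolite. There 6 of 8 mice at 80 µg were above all DM mice, with 0.30 (SE 0.10, 1.23-fold, adjusted p = 0.135), and with crocidolite the difference was 0.22 (adjusted p = 0.336). The 95% intervals for 80 µg at 1 month, 0.04 to 0.55 for Srxn1 and 0.10 to 0.50 for Gsr, lay above 0, although neither passed after adjustment over all genes. At 6 months Gsr was 8.005 ± 0.23 in DM lungs, 8.12 ± 0.14 at 1 µg, 7.96 ± 0.18 at 10 µg, 8.23 ± 0.21 at 40 µg, 8.23 ± 0.29 at 80 µg and 8.22 ± 0.16 with crocidolite, and at 12 months 8.31 ± 0.22 in DM lungs, 8.55 ± 0.24 at 1 µg, 8.35 ± 0.28 at 10 µg, 8.45 ± 0.21 at 40 µg, 8.38 ± 0.27 at 80 µg and 8.54 ± 0.13 with crocidolite. Gsr means at 12 months, from 8.31 ± 0.22 in DM lungs to 8.55 ± 0.24 at 1 µg, were above the DM mean at 1 month (7.99 ± 0.16). Among the 18 ordered groups no neighbouring pair of Srxn1 or Gsr differed by more than its pooled SD.

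Nqo1, a quinone reductase often used as a readout of NRF2, was not higher in any comparison and was lower with crocidolite at 1 month. The 5 crocidolite mice stood at 4.86, 5.24, 5.27, 3.51 and 4.56, and the 8 DM mice ran from 4.97 to 5.84 (median 5.50). Mice 1, 4 and 5 were below all DM mice and mice 2 and 3 within their range. The difference was -0.82 (SE 0.23, 0.567-fold, adjusted p = 0.0169). It rested on mouse 4, whose array was among those of low correlation, as was that of mouse 5. The call was lost without crocidolite mice 4 or 5 (adjusted p = 0.065 to 0.31). Without mouse 4 the difference was -0.52, and without all 10 low-correlation arrays it was -0.41 (adjusted p = 0.687). Without the 16 arrays high in Acta1 or Krt4 it was -0.72 (adjusted p = 0.103), not past the test.

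The Nqo1 means at 1 month were 5.50 ± 0.28 in DM lungs, 5.37 ± 0.30 at 1 µg, 5.37 ± 0.52 at 10 µg, 5.26 ± 0.43 at 40 µg, 5.16 ± 0.22 at 80 µg and 4.69 ± 0.72 with crocidolite. The means lay lower at 40 and 80 µg than at 1 and 10 µg, but the dose slope did not pass (-0.04 per doubling of dose plus 1, adjusted p = 0.557). At 6 months the levels were 5.34 ± 0.32 in DM lungs, 5.61 ± 0.29 at 1 µg, 5.34 ± 0.40 at 10 µg, 5.50 ± 0.23 at 40 µg, 5.23 ± 0.28 at 80 µg and 5.30 ± 0.46 with crocidolite. At 12 months they were 5.44 ± 0.28 in DM lungs, 5.81 ± 0.62 at 1 µg, 5.72 ± 0.51 at 10 µg, 5.69 ± 0.60 at 40 µg, 5.60 ± 0.47 at 80 µg and 5.55 ± 0.29 with crocidolite, and there every exposed mean lay above DM, none past the test. Over the 18 groups no neighbouring pair in order of level differed by more than its pooled SD. In the crocidolite lungs at 1 month 4 of 8 club cell markers were also lower and 1 higher, beside 2.83% and 2.93% of all genes. With 80 µg 0 were lower and 1 higher, beside 1.79% of all genes called in either direction. The mean of the club cell markers ran from 9.39 to 10.39 in crocidolite mice and from 9.83 to 10.36 in DM mice. The part of these cells in the Nqo1 difference was not tested.

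**Figure D3:**
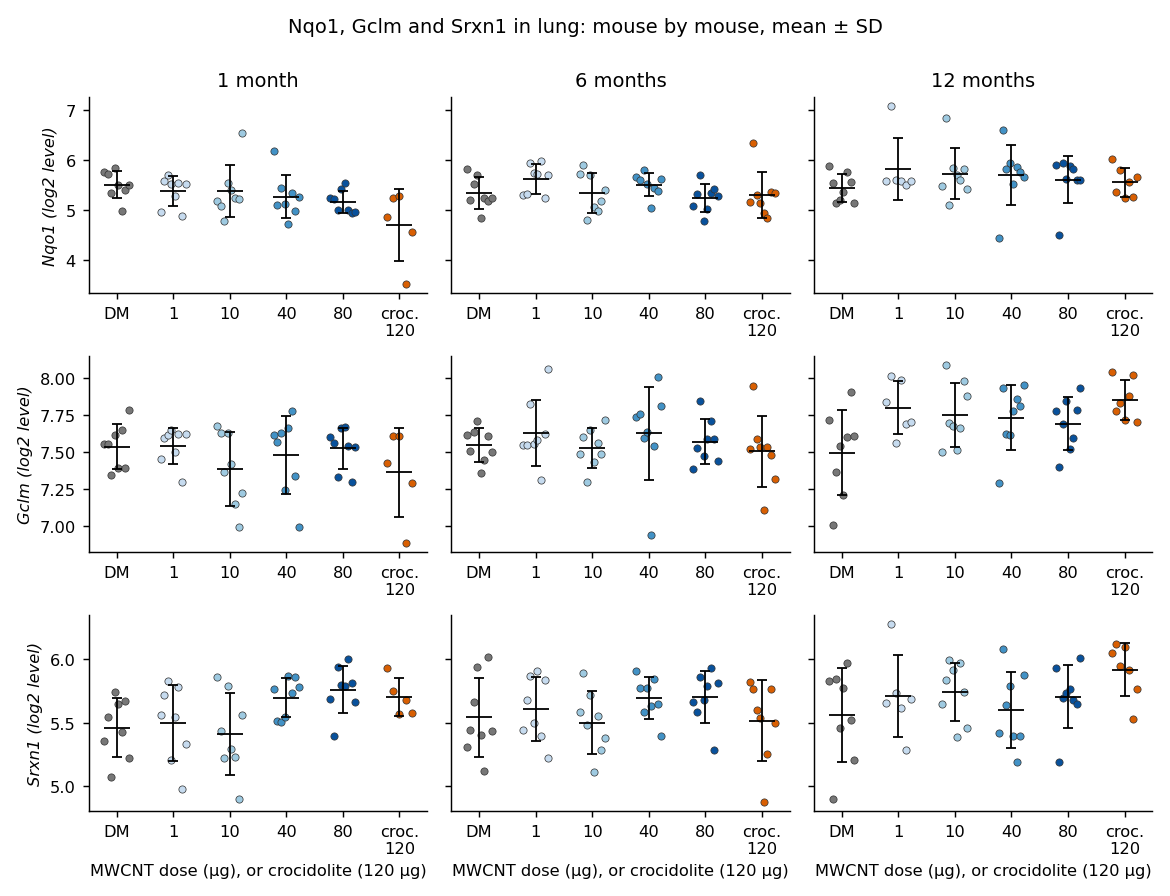
Log2 level of Nqo1, Gclm and Srxn1 (rows) in each mouse at 1, 6 and 12 months, by treatment on the horizontal axis, with DM in grey, MWCNT doses in blue and crocidolite in orange. Points are mice and bars the mean ± SD. The groups overlap in most panels, and the lowest Nqo1 value, 3.51, is crocidolite mouse 4 at 1 month.

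Hmox1, haem oxygenase 1, which breaks haem down to biliverdin, iron and carbon monoxide, rose with crocidolite at all 3 times and with 80 µg at 1 month. At 1 month the levels were 6.83 ± 0.17 in DM lungs, 6.96 ± 0.18 at 1 µg, 6.94 ± 0.19 at 10 µg, 7.14 ± 0.20 at 40 µg, 7.39 ± 0.23 at 80 µg and 7.69 ± 0.48 with crocidolite. DM mice ran from 6.61 to 7.08 (median 6.84) and 80 µg mice from 7.05 to 7.73 (median 7.42), with 7 of 8 above all DM mice. The 5 crocidolite mice, at 7.80, 7.37, 7.09, 7.86 and 8.34, were all above DM. The differences were 0.56 (SE 0.14, 1.48-fold, adjusted p = 0.00769) and 0.87 (SE 0.16, 1.82-fold, adjusted p = 2.37e-05). At 6 months they were 0.43 with 80 µg (adjusted p = 0.132) and 0.53 (SE 0.14, 1.45-fold, adjusted p = 0.0112) with crocidolite, and the level ran from 6.69 ± 0.18 in DM lungs over 6.70 ± 0.19, 6.73 ± 0.28, 6.97 ± 0.21 and 7.12 ± 0.40 at the 4 doses to 7.22 ± 0.33. At 12 months they were 0.26 (adjusted p = 0.484) and 0.90 (SE 0.14, 1.87-fold, adjusted p = 9.25e-07). All 7 crocidolite mice at 12 months (7.23 to 7.91) were above all DM mice (6.13 to 7.06). The other means at 12 months were 6.86 ± 0.36 at 1 µg, 6.97 ± 0.24 at 10 µg, 6.78 ± 0.19 at 40 µg and 6.98 ± 0.43 at 80 µg. The crocidolite call at 6 months was lost without crocidolite mouse 8 (adjusted p = 0.0552). Without the low-correlation arrays the crocidolite difference at 1 month was 0.56 (adjusted p = 0.104). No neighbouring pair of the 18 ordered groups differed by more than its pooled SD. The crocidolite difference at 6 months was 0.44 (adjusted p = 0.0957), not past the test, without the 16 arrays high in Acta1 or Krt4.

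Mt2, metallothionein 2, was higher at 1 month with 40 and 80 µg and with crocidolite at all 3 times. At 1 month its levels were 8.47 ± 0.40 in DM lungs, 8.48 ± 0.33 at 1 µg, 8.97 ± 0.35 at 10 µg, 9.25 ± 0.32 at 40 µg, 9.39 ± 0.32 at 80 µg and 9.61 ± 0.32 with crocidolite. DM mice ran from 7.96 to 9.25 (median 8.36), 80 µg mice from 8.90 to 9.81 (median 9.38), and crocidolite mice stood at 10.07, 9.33, 9.28, 9.69 and 9.67. All 5 crocidolite mice but 4 of 8 at 40 and at 80 µg were above all DM mice, and the groups overlapped. The differences were 0.78 (SE 0.20, 1.71-fold, adjusted p = 0.04) at 40 µg, 0.92 (SE 0.20, 1.89-fold, adjusted p = 0.00213) at 80 µg and 1.13 (SE 0.23, 2.19-fold, adjusted p = 0.000268) with crocidolite. The crocidolite difference was 0.83 (SE 0.20, 1.78-fold, adjusted p = 0.00662) at 6 months and 0.83 (SE 0.21, 1.78-fold, adjusted p = 0.00516) at 12 months. With 80 µg the differences at these times were 0.71 (adjusted p = 0.0633) and 0.65 (adjusted p = 0.176). The remaining means were 8.82 ± 0.31, 8.87 ± 0.46 and 8.94 ± 0.23 at 1, 10 and 40 µg and 6 months, and 8.42 ± 0.55, 8.59 ± 0.65 and 8.66 ± 0.51 at 12 months. The 40 µg call was lost without 40 µg mice 1, 2, 4 or 5 or DM mice 1, 3, 5, 6, 7 or 8 (adjusted p = 0.0505 to 0.155). Among arrays with no replacement in the title the 80 µg difference at 1 month was 0.61 (adjusted p = 0.642), and among those with it 1.34 (adjusted p = 0.00555). Without the 10 low-correlation arrays the 40 µg difference at 1 month was 0.70 (adjusted p = 0.166) and the crocidolite difference at 1 month was 1.01 (adjusted p = 0.0552), not past the test. Without the 16 arrays high in Acta1 or Krt4 the 40 µg difference was 0.85 (adjusted p = 0.0611), not past the test.

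Mt1, metallothionein 1, was higher at 1 month with 80 µg, by 0.50 (SE 0.14, 1.41-fold, adjusted p = 0.0416), and with crocidolite, by 0.56 (SE 0.16, 1.47-fold, adjusted p = 0.0195). It was higher with crocidolite at 12 months, by 0.48 (SE 0.15, 1.4-fold, adjusted p = 0.0281), and missed the threshold at 6 months (0.44, adjusted p = 0.0582). The Mt1 means at 1 month were 7.75 ± 0.34 in DM lungs, 7.85 ± 0.22 at 1 µg, 7.89 ± 0.31 at 10 µg, 8.11 ± 0.08 at 40 µg, 8.25 ± 0.25 at 80 µg and 8.31 ± 0.24 with crocidolite. At 6 months they were 7.72 ± 0.22 in DM lungs, 7.93 ± 0.26 at 1 µg, 7.96 ± 0.40 at 10 µg, 8.19 ± 0.40 at 40 µg, 8.13 ± 0.36 at 80 µg and 8.16 ± 0.13 with crocidolite, and at 12 months 8.001 ± 0.34 in DM lungs, 8.05 ± 0.33 at 1 µg, 8.17 ± 0.29 at 10 µg, 8.32 ± 0.31 at 40 µg, 8.11 ± 0.21 at 80 µg and 8.48 ± 0.21 with crocidolite. DM mice at 1 month ran from 7.29 to 8.37 (median 7.79) and 80 µg mice from 7.97 to 8.74 (median 8.14), so only 2 of 8 were above all DM mice and the groups overlapped. The 80 µg call was lost without 80 µg mice 3, 4, 7 or 8 or DM mice 2, 3, 5 or 6 (adjusted p = 0.0506 to 0.164). The crocidolite call at 1 month was lost without crocidolite mice 1 or 5 or DM mice 3 or 5 (adjusted p = 0.0511 to 0.117). That at 12 months was lost without crocidolite mice 2, 6 or 7 or DM mice 2, 4 or 5 (adjusted p = 0.0574 to 0.0851). Among arrays with no replacement in the title the 80 µg difference at 1 month was 0.17 (adjusted p = 0.964), and among those with it 0.90 (adjusted p = 0.00854). Mt1 means over the 18 groups ran from 7.72 ± 0.22 in DM lungs at 6 months to 8.48 ± 0.21 with crocidolite at 12 months, and no neighbouring pair of Mt1 or of Mt2 differed by more than its pooled SD. Without the 10 low-correlation arrays the 80 µg difference at 1 month was 0.43 (adjusted p = 0.131), the crocidolite difference at 1 month was 0.47 (adjusted p = 0.336) and that at 12 months was 0.44 (adjusted p = 0.0542), not past the test. Without the 16 arrays high in Acta1 or Krt4 the crocidolite difference at 12 months was 0.44 (adjusted p = 0.0628), not past the test. Under quantile normalization the 80 µg difference at 1 month was 0.45 (adjusted p = 0.0519), not past the test. Under median centring it was 0.45 (adjusted p = 0.0688), not past the test.

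The dose trend over DM and the 4 MWCNT doses was fitted as the slope of group means on log2 of the dose in µg plus 1. At 1 month 6 members had a slope above 0, beside 2.56% of all genes (3.03% in either direction): Slc7a11 (0.23, adjusted p = 6.89e-07), Mt2 (0.15, adjusted p = 7.93e-06), Hmox1 (0.07, adjusted p = 0.00646), Gclc (0.07, adjusted p = 1.86e-05), Mt1 (0.07, adjusted p = 0.0107) and Txnrd1 (0.03, adjusted p = 0.00965). At 6 months 2 did, Slc7a11 (0.16, adjusted p = 0.00279) and Hmox1 (0.06, adjusted p = 0.0356), beside 1.18% (1.34% either), and at 12 months 1 did, Slc7a11 (0.17, adjusted p = 0.00535), beside 0.591% (1.2% either). No member had a slope below 0 past the test. The Slc7a11 slope passed at all 3 times with all arrays, although at 12 months no single dose did. Among arrays with no replacement in the title the Slc7a11 slope passed at 1 month (0.20, adjusted p = 0.00162) but not at 6 or 12 months (0.13 and 0.14, adjusted p = 0.0792 and 0.0992). Among arrays with it the slope at 12 months was 0.21 (adjusted p = 0.521). The slopes of Hmox1, Txnrd1 and Mt1 at 1 month (adjusted p = 0.31, 0.259 and 0.689) and of Hmox1 at 6 months (adjusted p = 0.082) were also lost without the replacement arrays. The Hmox1 slope at 6 months was lost without 80 µg mice 2, 3 or 6 or DM mice 3, 5, 6 or 8 or 40 µg mice 6 or 8 (adjusted p = 0.0554 to 0.172). Mice given 1 or 10 µg were not left out. The Hmox1 slope at 6 months was 0.06 (adjusted p = 0.0777), not past the test, without the 16 arrays high in Acta1 or Krt4.

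Set directly against crocidolite, 80 µg MWCNT gave lower levels of Hmox1 and Gclc at 12 months and no member past the test at 1 or 6 months, beside 0.83% of genes lower and 0.978% either at 12 months and 0.0902% and 0.0271% called at 1 and 6 months. At those earlier times 1 and 0 members had an unadjusted p under 0.05 in limma. Hmox1 at 12 months was -0.64 (SE 0.14, 0.643-fold, adjusted p = 0.00637), 80 µg minus crocidolite, with 4 of 8 mice below all crocidolite mice. Gclc was -0.38 (SE 0.10, 0.767-fold, adjusted p = 0.0249), with 7 of 8 mice below. Slc7a11 was -0.95 (95% interval -1.50 to -0.39, adjusted p = 0.0747), also with 7 of 8 mice below. The interval for Nqo1 was -0.37 to 0.47 and for Mt2 -0.60 to 0.24, and at 1 month that for Slc7a11 was -1.17 to 0.05. The Gclc call was lost without crocidolite mice 1 or 2 or 80 µg mice 2, 4 or 5 (adjusted p = 0.0505 to 0.13). Slc7a11 passed without 80 µg mouse 8 (adjusted p = 0.0194). Among arrays with no replacement in the title, 3 with 80 µg and 2 with crocidolite, the Gclc difference was 0.00, and among those with it -0.57 (adjusted p = 0.998 and 0.101). The materials were given at different masses, so this compares the groups as dosed. Without the 10 low-correlation arrays the Gclc difference at 12 months was -0.33 (adjusted p = 0.0909), not past the test. It was -0.35 (adjusted p = 0.117), not past the test, without the 16 arrays high in Acta1 or Krt4.

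**Figure D4:**
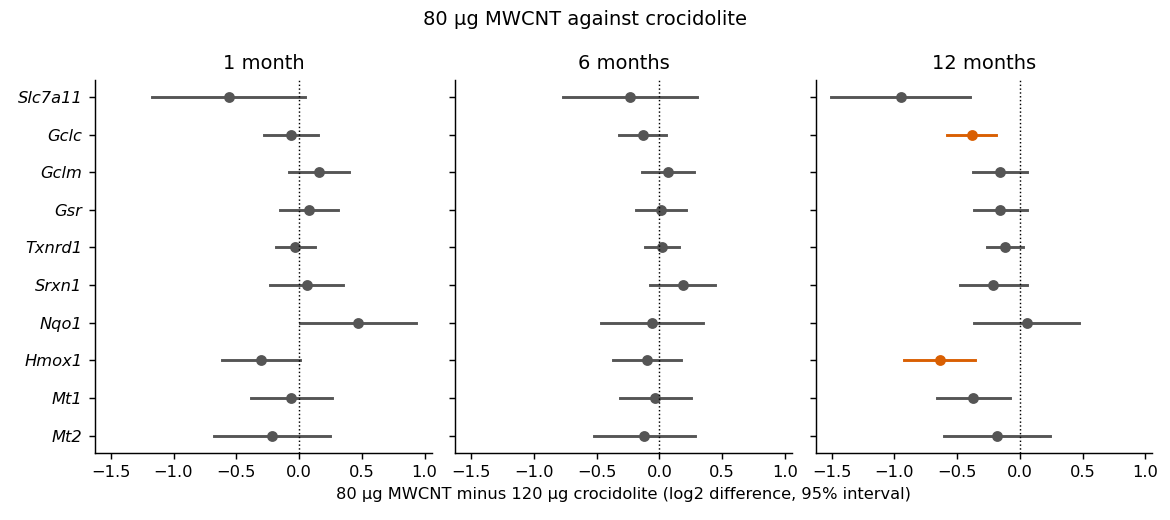
Log2 difference of 80 µg MWCNT minus 120 µg crocidolite for each member at 1, 6 and 12 months. Points are differences, lines 95% intervals, and orange marks an adjusted p under 0.05: only Gclc (-0.38) and Hmox1 (-0.64) at 12 months.

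Calls at 1 month and not at 12 with 80 µg do not by themselves show a change with time, which was tested as a difference of differences. The 12-month minus the 1-month effect of 80 µg was -0.51 for Slc7a11 (95% interval -1.26 to 0.25), -0.30 for Hmox1 (-0.68 to 0.09) and -0.39 for Mt1 (-0.79 to 0.01), and 0 members passed, beside 0.00902% of all genes. For crocidolite 0 members passed either, beside 0.0541%, and the largest were Nqo1, 0.92 (adjusted p = 0.446), and Gclm, 0.53 (adjusted p = 0.329). Between 6 months and 1 month 0 members passed for 80 µg or crocidolite, beside 0% and 0.0271% of genes. Unadjusted p-values under 0.05 in limma were found for 0 and 2 members at 12 months and 0 and 1 at 6 months. In DM lungs alone 0 members differed between 12 months and 1 month or 6 months and 1 month, beside 1.12% and 0.135% of genes (2 and 0 members with an unadjusted p under 0.05). The largest was Gsr, 0.32 (SE 0.10, 1.25-fold, adjusted p = 0.11). Age and time since the droplet of DM cannot be told apart in that comparison.

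Of 13 measured regulators and partners, which include Keap1, Cul3, the small MAF genes, Bach1 and Sqstm1, none passed with 80 µg at any time (shares of all genes 1.79%, 0.933% and 0.176%) or with crocidolite at 1 or 6 months (5.76% and 3.68%). With shares so low, 0 of 13 says nothing particular of the regulators. With crocidolite at 12 months 2 passed, beside 6.47% of all genes: Nfe2l2 was higher by 0.24 (adjusted p = 0.0238) and Bach2, a relative of BACH1, was lower at -0.45 (adjusted p = 0.0324). NRF2 is regulated largely through protein stability, which arrays do not measure.

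Of 20 other measured genes known as NRF2 targets in detoxification, 0 were higher and 1 lower with 80 µg at 1 month (median -0.05, beside 1.79% of all genes called) and 0 higher and 3 lower with crocidolite at 1 month (median -0.19), beside 2.93% of all genes higher and 2.83% lower with crocidolite. The glutathione transferase Gsta3 was -0.56 with 80 µg and -0.97 with crocidolite (adjusted p = 0.0272 and 2.39e-05), and the export pump Abcc3 was -0.51 (adjusted p = 0.0083). The third was the glutathione transferase Gstm1 (-0.38, adjusted p = 0.0326). These genes were lower in the crocidolite lungs in which Nqo1 and 4 club cell markers were lower too. At 6 months 0 of 20 passed with either material, beside 0.933% of all genes called with 80 µg and 3.68% with crocidolite. At 12 months 2 were higher with crocidolite, the aldo-keto reductase Akr1b8 (0.80, adjusted p = 0.00065) and Osgin1 (0.41, adjusted p = 0.0116), and 0 with 80 µg. The shares of all genes called were then 6.47% with crocidolite and 0.176% with 80 µg.

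Of 5 measured genes of NADPH supply 0 passed with 80 µg and 2 were higher with crocidolite at each time, malic enzyme Me1 (0.48, 0.50 and 0.51 at 1, 6 and 12 months) with Pgd at 1 month (0.40) and Idh1 at 6 and 12 months (0.36 and 0.38). Adjusted p-values of Me1 were 0.0499, 0.0178 and 0.0127. Beside this list and those below, 1.79%, 0.933% and 0.176% of all genes were called with 80 µg at 1, 6 and 12 months. With crocidolite 5.76%, 3.68% and 6.47% were called. With such shares, 0 or 1 gene of a list says nothing particular of it. Of 19 further genes of the glutathione and thioredoxin systems only glutaredoxin Glrx passed, with crocidolite at 12 months (0.72, adjusted p = 0.000164). Of 4 enzymes that remove superoxide or peroxide, Sod2 of mitochondria was higher at 1 month with 80 µg (0.34, adjusted p = 0.0161) and crocidolite (0.34, adjusted p = 0.0288), and catalase, Cat, was lower with crocidolite (-0.46, adjusted p = 0.0379). None of these 4 passed at 6 or 12 months. Among 13 oxidant-producing enzymes Cyba, a subunit of the phagocyte oxidase, was higher at 1 month with 80 µg (0.48) and crocidolite (0.73), with adjusted p = 0.045 and 0.000744. Its partner Cybb was higher with crocidolite at 1 and 12 months (0.60 and 0.59), while Nox1 was lower at 6 months (-0.60). With crocidolite at 1 month 3 of the 13 were higher and 2 lower: besides these the nitric oxide synthase Nos2 was higher (0.59) and Nox4 and Aox1 were lower (-0.41 and -0.37), with adjusted p = 0.0119, 0.0225 and 0.0227.

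Beside Hmox1, 2 of 14 genes of haem and iron handling were higher with 80 µg at 1 month, the phagosomal metal transporter Slc11a1 (0.78, adjusted p = 0.00548) and ceruloplasmin, Cp (0.26, adjusted p = 0.0425). With 80 µg 1 passed at 6 months, Cp (0.31, adjusted p = 0.017), and 0 at 12 months. With crocidolite 2, 3 and 4 of the 14 were higher at 1, 6 and 12 months. Slc11a1 led at each (1.04, 0.74 and 1.04), with biliverdin reductase Blvra at 1 month (0.48) and haptoglobin, Hp, at 6 and 12 months (0.35 and 0.49). The others were Cp at 6 and 12 months (0.32 and 0.46) and biliverdin reductase Blvrb at 12 months (0.48). Of 14 other metal response genes 0 passed with 80 µg. With crocidolite the copper chaperone Atox1 (0.62) and the zinc importer Slc39a14 (0.46) were higher at 1 month, 0 at 6 months, and the zinc importer Slc39a4 (0.73) at 12 months. Both lists stand beside 1.79%, 0.933% and 0.176% of all genes called with 80 µg at 1, 6 and 12 months. With crocidolite the shares were 5.76%, 3.68% and 6.47%.

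Metallothioneins are also known to answer to glucocorticoids, and Slc7a11 to the stress factor ATF4. Genes of both are listed here, and the part of either factor in these data was not tested. Of all genes, 1.79%, 0.933% and 0.176% were called with 80 µg at 1, 6 and 12 months. With crocidolite 5.76%, 3.68% and 6.47% were called. Of 12 glucocorticoid-responsive genes 1 was higher with 80 µg at each time, Lcn2 (1.60, 1.07 and 1.08), which is also an acute phase gene. With crocidolite Lcn2 (1.76) and Sgk1 (0.37) were higher at 1 month, Lcn2 was higher (1.28) and Dusp1 lower (-0.68) at 6 months, and Lcn2 was higher at 12 months (1.65). The list medians were 0.07 with 80 µg and -0.17 with crocidolite at 1 month. Of 13 ATF4 targets Atf3 alone was higher: with 80 µg at 1 month (1.03) and with crocidolite at 1, 6 and 12 months (1.34, 0.57 and 1.00). Vegfa was lower with crocidolite at 1 month (-0.46), and the list medians with 80 µg and crocidolite at 1 month were 0.02 and -0.05.

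With 80 µg and crocidolite, some markers of macrophages and of epithelial cells were higher where Slc7a11, Gclc, Hmox1 or Mt2 were higher. Some macrophage and mucous cell markers were also higher with 80 µg at 12 months, where none of these genes passed. All 10 members had differences above 0 there, and 4 had an unadjusted p under 0.05 in limma. Of 10 general macrophage markers 7, 7 and 1 were higher with 80 µg at 1, 6 and 12 months and 5, 6 and 7 with crocidolite. Of 10 markers of lipid-laden or recruited macrophages 6 were higher in each of these 6 comparisons. The mean of the general markers ran from 7.45 to 7.81 in DM mice, 7.99 to 8.71 in 80 µg mice and 8.08 to 8.88 in crocidolite mice at 1 month. At 12 months it ran from 7.35 to 7.80, 7.69 to 8.24 and 8.15 to 8.67. For the lipid-laden list the ranges were 5.81 to 6.08, 6.88 to 7.79 and 7.12 to 8.12 at 1 month and 5.74 to 5.99, 6.69 to 7.02 and 7.22 to 7.87 at 12 months. Alveolar macrophage markers, 11 in all, had 4, 2 and 0 higher with 80 µg and 5, 2 and 5 higher with crocidolite, where 1 was lower at 6 and at 12 months. Their mean ran at 1 month from 7.13 to 7.73 in DM, at least 7.46 in 80 µg and 7.61 to 8.37 in crocidolite mice, and at 12 months from 6.82 to 7.41, 6.92 to 7.83 and 7.46 to 7.87. Epithelial markers moved as well. Of 8 type 2 alveolar markers 3, 1 and 0 were higher with 80 µg and 3, 1 and 4 with crocidolite at 1, 6 and 12 months. Their mean at 1 month was 10.54 to 10.80 in DM, 10.87 to 11.06 in 80 µg and 10.84 to 11.07 in crocidolite mice. No mouse given 80 µg or crocidolite lay in the DM range. At 12 months it was 10.36 to 10.64, 10.26 to 10.74 and 10.66 to 10.93, and the crocidolite mice again lay above the DM range. Club cell markers, lower at 1 month with crocidolite as given beside Nqo1, had 2 and 3 of 8 higher with crocidolite at 6 and 12 months, with means at 12 months of 10.04 to 10.31 in DM and 10.31 to 10.87 in crocidolite mice. The mean of 6 type 1 alveolar markers at 1 month was 9.46 in DM, 9.35 in 80 µg and 9.25 in crocidolite lungs. At 12 months it was 9.26, 9.09 and 9.43, and the mice overlapped at both times. Of 7 mucous cell markers 6 were higher with 80 µg at 1 and 6 months, 3 at 12 months, and 6 with crocidolite at each time. Of 10 neutrophil markers 0 passed in any of the 6 comparisons. The shares of all genes called were 1.79%, 0.933% and 0.176% with 80 µg at 1, 6 and 12 months. With crocidolite they were 5.76%, 3.68% and 6.47%. With such shares, 0 of 10 says nothing particular of neutrophils. Of 7 endothelial markers 5, 5 and 4 were lower with crocidolite at 1, 6 and 12 months and 0 with 80 µg. In whole lung, more cells of a type and more RNA per cell cannot be told apart, and the part of these cells in the differences of the 10 genes was not tested.

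By group means over the 18 groups, the genes whose pattern was most like that of a member were Msr1 (Pearson r 0.978) and Lilrb4a (0.975) for Slc7a11, Proz (0.986) and Bhlhe40 (0.979) for Gclc, and Anpep (0.967) and Gla (0.965) for Hmox1. For Mt2 they were Steap4 (0.966) and Lcn2 (0.956), and for Mt1 Il13ra1 (0.956) and Clec4d (0.954). The remaining members were followed by Foxc1 (0.928) and Cfap300 (0.911) for Gclm, Ccz1 (0.929) and Uckl1os (0.922) for Gsr, A2ml1 (0.933) and Anxa8 (0.931) for Txnrd1, Creg1 (0.923) and Cblc (0.921) for Srxn1, and Ap1s2 (0.940) and Pon1 (0.927) for Nqo1. Msr1, a scavenger receptor, is also on the general macrophage list. Among the members themselves, the 18 group means of Gclc and Slc7a11 correlated at 0.926, of Gclc and Hmox1 at 0.919 and of Gclc and Mt2 at 0.918, while Gclc and Gclm, the subunits of one enzyme, correlated at -0.10. Nqo1 and Gclm correlated at 0.785 and Nqo1 and Mt2 at -0.64. These values describe 18 points that share the normalisation of one array table, and the group means were the measure by which the genes were ranked.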

How the data were processed

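Lung RNA was measured on 139 arrays. The authors deposited log2 values (array medians 4.01 to 4.34). The submitters' processing notes list RMA, oligo and limma, without versions, and a genome build is not given here. Of 41345 features, 23521 were paired with 1 symbol in the platform annotation, and for each gene the feature with the highest mean was kept, which left 22180 genes. The 2 arrays of 1 mouse (1 µg, 1 month) were averaged. Replicate numbers follow accession order and only name a mouse.

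R 4.3.3 and limma 3.58.1 were used to fit 1 model with a mean for each of 18 groups, followed by eBayes. Unless an alternative is named, adjusted p-values of genes are from this two-sided test, with Benjamini-Hochberg adjustment over 22180 genes at 0.05. Errors are standard errors of the contrast. Under an alternative they come from its own limma fit, adjusted over the genes in that fit. Those of gene pairs come from permutations, adjusted over 45 pairs. The members and the gene lists were chosen with earlier results of these data known. All 10 members are named in each comparison, then the 2 largest called genes of each list with 80 µg and crocidolite, and the 2 genes closest to each member by correlation of group means. Gstm1, Nos2, Nox4, Aox1, Blvrb and, with crocidolite, Cp were named after their values were seen, to complete short counts. Alternatives were other scalings, weights, covariates, array selections and filters, and leaving out mice in turn, partly added after the calls were seen. On simulated data for 80 µg at 1 month, 12% of genes changed 1.25-fold, 58% of 1.5-fold and 92% of 2-fold were recovered. For crocidolite at 1 month the shares were 8%, 40% and 92%. The simulations changed 50 genes at each fold change, while the real comparisons called 398 and 1277 genes. The adjustment depends on how many genes change, so recovery in the real comparisons may differ. Pair correlations and figures were made with pandas 2.3.3, numpy 2.4.6 and matplotlib 3.10.9, and tables were read with the data.table package, version 1.17.8.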

Additional observations from a re-analysis of the deposited data

Results flagged for a closer look

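In 180 sets of values (10 genes in 18 groups), 19 single mice were set apart from the rest of their group by a gap that was large against the group's range. Chance flags about 1 in 20 groups. Groups of 4 to 10 mice were checked, and 3 mice were set apart in more than 1 gene. The values below are log2 levels, and the part of the markers given beside them was not tested. Only some marker lists are named for each mouse, and in several mice other lists stood apart too.

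Nqo1 was set apart most often. Its highest level of all, 7.08, was in replicate 2 at 1 µg and 12 months, where the next mouse stood at 5.59. Txnrd1 was also set apart in that mouse, at 8.76. The mouse was above all others of its group in most marker lists, among them the macrophage, neutrophil, club cell, alveolar and mucous cell lists. Its erythroid marker Slc4a1 was 1.27 above the median of the others. Adipose markers were 0.80, mucous cell markers 0.46 and general macrophage markers 0.42 above it. Nqo1 was 6.53 in replicate 8 at 10 µg and 1 month. This mouse was above all others of its group in skeletal muscle (2.56 over their median), mucous cell (0.82), alveolar macrophage (0.73) and lipid-laden macrophage markers (0.73), and its array was high in Acta1 (8.88). Nqo1 was 6.85 in replicate 2 at 10 µg and 12 months, with general macrophage markers 0.23 over the median of the others and mucous cell markers -0.39 from it. It was 6.33 in crocidolite replicate 2 at 6 months. In this crocidolite mouse the adipose markers were 2.11 above the median of the others. Nqo1 was low, at 4.49, in replicate 2 at 80 µg and 12 months, whose Srxn1 level of 5.19 was also set apart and whose array was among the 10 of low correlation.

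Hmox1 (6.49) and Gclm (6.94) were both low in replicate 5 at 40 µg and 6 months, where type 1 alveolar markers were -0.80 from the median of the others. Slc7a11 was 5.87 in replicate 2 at 40 µg and 12 months, and 5.31 in replicate 8 at 80 µg and 12 months. In the first mouse general macrophage markers were 0.20 over the median of the others. Its lipid-laden macrophage markers were -0.16 and its mucous cell markers -0.46 from that median. In this second mouse general macrophage and mucous cell markers were 0.46 and 1.33 above the median of the others. Txnrd1 was 8.41 in replicate 4 at 10 µg and 6 months, with mucous cell markers 1.05 over the median of the others. Gsr was 8.56 in DM replicate 4 at 6 months, where neutrophil markers were 1.61 above the median of the others. It was 8.28 in replicate 5 at 1 µg and 1 month, where mucous cell markers were -0.60 from the median of the others. It was 8.98 in replicate 7 at 10 µg and 12 months, where neutrophil markers were 0.51 and Slc4a1 1.36 above it. Mt1 was 8.27 in replicate 1 at 40 µg and 1 month, with Slc4a1 0.99 over the median of the others, and 8.52 in replicate 8 at 1 µg and 6 months, with muscle markers 3.38 over it. It was 8.91 in replicate 2 at 80 µg and 6 months, in which general macrophage markers were 0.73 above the median of the others. Mt2 was 9.23 in replicate 4 at 1 µg and 1 month, on whose array muscle and squamous markers were 3.19 and 4.82 above the median of the others.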

How the results depend on the processing

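Of 3370 values of members under 13 alternatives, 3242 kept their side of the threshold, 90 lost a call, 38 gained one and 0 calls reversed. A total of 163 values changed sign, all of them uncalled in both fits. The cause of the changes was not tested, but restricting arrays or groups also leaves fewer samples. Shares of all genes called under each alternative, or with a mouse left out, are not given beside the counts. A moved count is therefore not shown to be particular to the members. The counts of members past the test that moved by over 1.5 times, or from or to 0, were as follows. Quantile normalization and median centring each gave 1 for 40 µg at 1 month, 1 for 40 µg at 12 months and 2 for the dose slope at 12 months, and centring gave 1 for 80 µg minus crocidolite at 12 months. Array weights gave 5 for 80 µg at 6 months, 1 at 12 months, 1 for 40 µg at 12 months and 5 for the slope at 6 months. Arrays with no replacement in the title gave 1 and 0 for 80 µg at 1 and 6 months, 0 for 40 µg at 1 month, 2 and 1 for crocidolite at 1 and 12 months, 0 for 80 µg minus crocidolite at 12 months and 3, 0 and 0 for the slopes. Arrays with it gave 2 for 80 µg at 1 month, 3 and 3 for crocidolite at 1 and 12 months, 0 for 80 µg minus crocidolite at 12 months and 0 for the slope at 12 months. Comparisons with a group of under 2 such arrays were not run. A spline on accession order gave 4 for 80 µg at 6 months, 1 for 80 µg minus crocidolite at 12 months and 5 and 2 for the slopes at 6 and 12 months. Without 10 arrays of low correlation the counts were 1 for 40 µg at 1 and at 12 months, 2 for crocidolite at 1 month and 1 for 80 µg minus crocidolite at 12 months. Without arrays high in Acta1 or Krt4 they were 0 for 80 µg at 6 months, 0 for 40 µg at 1 month and 1 for 80 µg minus crocidolite at 12 months. With the compared groups alone in the fit they were 0 for 80 µg at 6 months, 3 and 4 for crocidolite at 1 and 12 months, 0 for 80 µg minus crocidolite at 12 months and 1 for the slope at 6 months. The mean of all features gave 1 for 80 µg at 6 months and for 40 µg at 1 month, and a filter on dim genes gave 1 for 40 µg at 12 months. Trended and robust moderation changed no count by over 1.5 times, nor did the word replacement as a covariate. Smaller moves were also seen. The 80 µg count at 1 month was 4 under quantile normalization, median centring, compared groups alone and without the low-correlation arrays, and 5 with the spline. The dim-gene filter gave 3 for 80 µg at 6 months and for 80 µg minus crocidolite at 12 months. For crocidolite the counts were 6 at 1 month with array weights or without the Acta1 or Krt4 arrays. They were 3 to 5 at 6 months over the alternatives run, and 5 at 12 months without either set of arrays. The slopes gave up to 7 at 1 month, and 3 at 6 months with the replacement covariate, the dim-gene filter or without the low-correlation arrays.

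With 1 mouse left out at a time, counts ran from 4 to 6 for 80 µg at 1 month, 0 to 3 at 6 months, 0 to 3 for 40 µg at 1 month and 0 to 1 at 12 months. They ran from 5 to 7, 3 to 5 and 5 to 7 for crocidolite at 1, 6 and 12 months, 1 to 3 for 80 µg minus crocidolite at 12 months, and 6 to 7, 1 to 4 and 1 to 2 for the slopes. The remaining comparisons stayed at 0. Mice given 1 or 10 µg were not left out, to keep the number of fits under 100. No paired analysis was possible because the labels give no replicate number shared between groups.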

Other observations

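Within groups, mice high in one of the 10 genes tended to be high in others. Each mouse's deviation from its group mean was compared over all mice for 45 pairs of genes, with 100000 permutations of mice within groups and Benjamini-Hochberg adjustment over the 45 pairs. Of the 45 pairs, 42 had r above 0 and 39 an adjusted p under 0.05, with a median r of 0.326. Whether genes outside the 10 share such deviations was not tested.

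The highest value was that of Gclc and Txnrd1, r = 0.6 (permutation p = 1e-05, adjusted 4.5e-05) and rho = 0.572 (permutation p = 1e-05, adjusted 5.6e-05), and r was 0.568 without the 2 mice farthest from the median. Here 1e-05 is the smallest p that 100000 permutations can give. For each pair the 2 farthest mice were chosen by the first-named gene alone, so mice far out only in the second stayed in. Nqo1 and Gclm, whose group means lay together, had r = 0.466 (permutation p = 1e-05, adjusted 4.5e-05) and rho = 0.429 (permutation p = 1e-05, adjusted 5.6e-05), and r was 0.43 without the 2 farthest mice. The neighbouring genes Mt1 and Mt2 had only r = 0.263 (permutation p = 0.0054, adjusted 0.0081) and rho = 0.245 (permutation p = 0.0082, adjusted 0.012), and r was 0.198 without the 2 farthest mice. Among 100 mice with no replacement in the array title the Mt1 and Mt2 value was r = 0.159, and among 37 with it (the mouse with 2 arrays is in neither) r = 0.696. The difference between these values was not tested. For Gclc and Txnrd1 they were 0.569 and 0.72, and for Nqo1 and Gclm 0.378 and 0.64. Gclm and Mt2 (r = -0.0104, permutation p = 0.9) and Srxn1 and Mt1 (r = -0.0209, permutation p = 0.82) had values near 0.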
